A study of Mus musculus with 12 samples.

Results

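The levels of 10 genes that mark the endothelial cells of the liver sinusoids were compared in whole livers of Atg7 KO, Olig1-Cre and control mice. The genes were taken by name through the gene symbols of the array platform and were Stab1, Stab2, Lyve1, Oit3, Ptprb, Clec4g, Kdr, Pecam1, Eng and Cdh5. They have 18 of the 45281 probes on the array. Of these, 14 probes of 9 genes were detected on at least 4 of the 12 arrays, and these 9 are among the 10711 genes that could be tested. Kdr, the main VEGF receptor of endothelium, could not: its 2 probes were detected on 0 and 2 arrays, with log2 values between 4.17 and 4.80, so no fold change is given for it.

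The Atg7 KO group held 4 livers with the source name Alb-Cre:Atg7 FF, in which Cre is driven by the albumin promoter, active in hepatocytes, and both copies of Atg7 carry loxP sites. The Olig1-Cre group held 4 livers with the source name Olig1-Cre:Atg7 FF. Their labelled genotype is also Atg7 cKO, but the Olig1 promoter is known from the oligodendrocyte lineage, and the methods do not describe these mice. The control group held 4 livers with floxed Atg7 and no Cre, 2 from the Alb line and 2 from the Olig1 line. All livers thus shared the floxed Atg7 gene, and all mice were 2 months old. The Atg7 KO group was all male. The Olig1-Cre and control groups had 1 male and 3 females each, and each of the 2 chips carried 2 arrays of every group.

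Sinusoidal endothelial cells line the liver capillaries without a continuous basement membrane and with open pores, so that plasma reaches the hepatocytes directly. They clear waste molecules from the blood through scavenger receptors and lectins, and they release signals such as Wnt2 to neighbouring hepatocytes. Loss of the pores, with a basement membrane and markers of ordinary capillaries, is known as capillarization. In this list Stab1, Stab2, Lyve1 and Clec4g encode scavenger or lectin receptors, Oit3 is a liver marker of these cells, Ptprb and Kdr belong to the tyrosine kinase signalling of the vessel wall, Eng is a co-receptor of the TGF-beta family, and Pecam1 and Cdh5 are junction molecules of all endothelium.

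Values are the deposited log2 intensities, and the value of a gene is the median of its detected probes. The median signal before normalization was 93.6 to 96.9 in Atg7 KO, 88.8 to 95.3 in Olig1-Cre and 79.8 to 90.6 in control arrays, and the share of detected probes was 39.8 to 43.9% in Atg7 KO, 39.1 to 41.9% in Olig1-Cre and 34.2 to 37.8% in control arrays, with control 1 lowest on both measures. The single Atg7 probe was detected on 1 Atg7 KO array, 0 Olig1-Cre arrays and 1 control array, with log2 values of 4.33 to 4.62 in Atg7 KO, 4.29 to 4.49 in Olig1-Cre and 4.23 to 5.70 in control livers, and is too dim to check the genotype. In bulk tissue, fewer cells of a type and less RNA per cell cannot be told apart.

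Between Atg7 KO and control livers, 3 of the 9 tested markers fell (Oit3, Stab2 and Ptprb), 1 rose (Lyve1), and Stab1, Clec4g, Pecam1, Eng and Cdh5 did not pass the test. Over all genes 34.8% were called in this comparison, 19.5% higher and 15.3% lower (limma, Benjamini-Hochberg adjusted p under 0.05), so the share of members called, 4 of 9, lay near the background. The median change of the 9 markers was -0.18 on the log2 scale, against -0.01 over all genes. These directions hold relative to arrays brought to equal distributions. With each array scaled to 1 median instead, the tally turned to 4 markers higher and 0 lower, where 45.3% of all genes were called higher and 1.52% lower. The median of all genes moved up by 0.59, Oit3 and Stab2 differed by -0.12 and -0.07, Ptprb by 0.02, and none of these 3 passed. Lyve1 passed at 1.59, and Stab1 (0.87, adjusted p = 0.0186), Pecam1 (0.67, adjusted p = 0.0237) and Cdh5 (0.78, adjusted p = 0.0248) passed as higher. Relative to that median of all genes Oit3 stood at -0.71, Stab2 at -0.66 and Ptprb at -0.56.

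**Figure D1:**
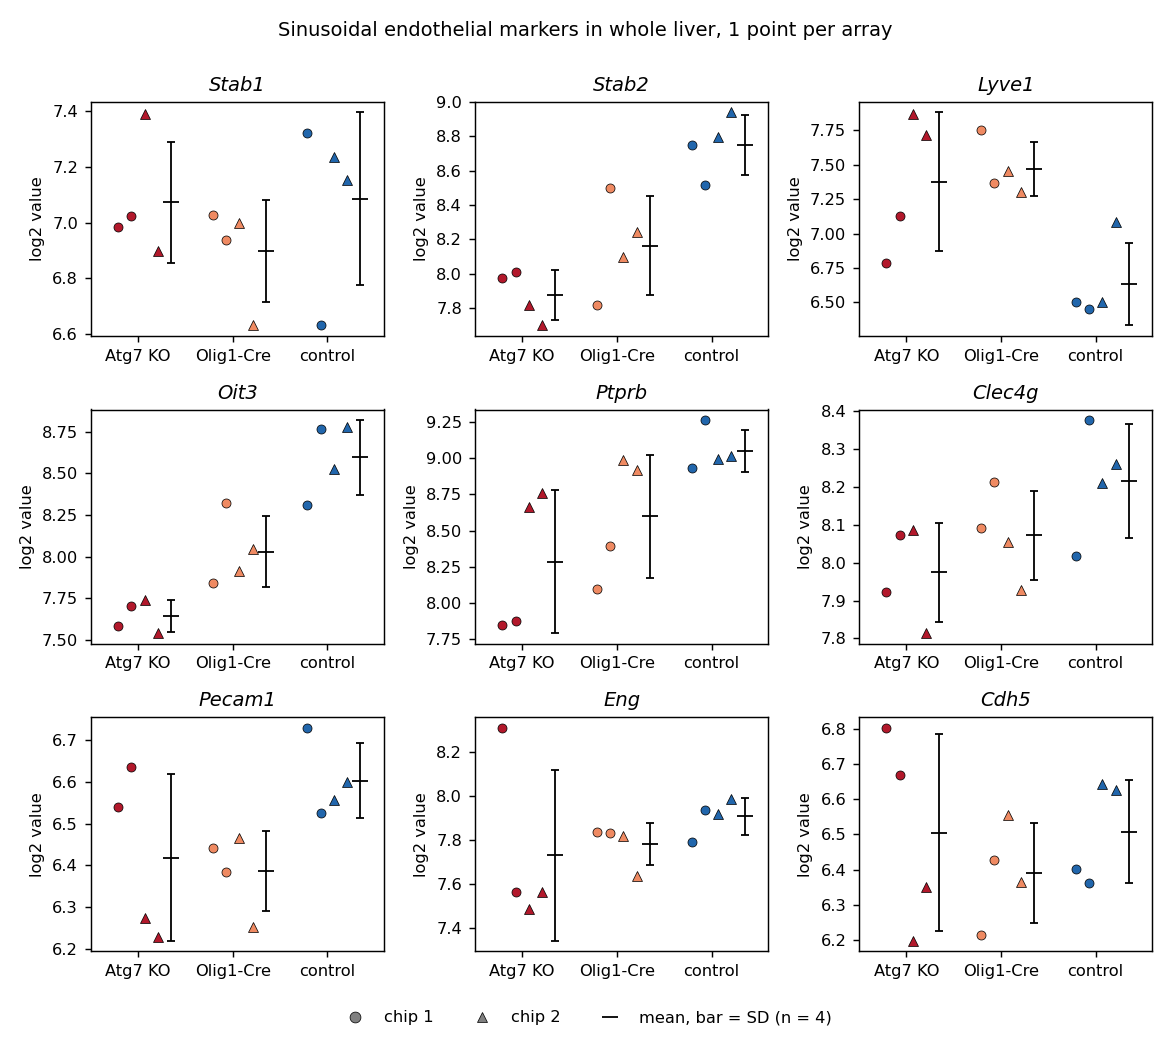
Log2 values (vertical axes) of the 9 tested markers on each of the 12 arrays, in Atg7 KO, Olig1-Cre and control livers from left to right; circles are arrays of chip 1, triangles arrays of chip 2, and the line with its bar is the mean with SD of 4 livers. Stab2 and Oit3 lie at 7.54 to 8.01 in all Atg7 KO livers and at 8.31 to 8.94 in all controls. Among all genes 15.6% lie below every control in Atg7 KO. Lyve1 is highest in the Cre groups and Ptprb splits by chip. With arrays scaled to 1 median the Stab2 and Oit3 differences shrink to -0.07 and -0.12 and the Ptprb difference turns to 0.02.

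Stab2 encodes stabilin-2, the scavenger receptor that takes up hyaluronan from the blood. It had log2 values of 7.98, 8.01, 7.81 and 7.70 in Atg7 KO livers, 7.81, 8.50, 8.10 and 8.24 in Olig1-Cre livers and 8.75, 8.52, 8.80 and 8.94 in controls. Every Atg7 KO and Olig1-Cre liver lay below every control, although Olig1-Cre 2 (8.50) came close to control 2 (8.52). Stab2 averaged 7.87 ± 0.15 in Atg7 KO and 8.75 ± 0.18 in control livers (SD, n = 4 each), which is -0.88 as a log2 fold change (SE 0.13, adjusted p = 0.000718). In Olig1-Cre livers the mean was 8.16 ± 0.29 and the change against control -0.59 (SE 0.16, adjusted p = 0.0304). The background for groups that do not overlap in the lower direction was 15.6% of genes for Atg7 KO and 9.72% for Olig1-Cre. Before normalization the Stab2 signals were 399, 348, 395 and 358 in Atg7 KO, 320, 368, 417 and 380 in Olig1-Cre, and 213, 358, 438 and 478 in control livers. On that scale the groups overlapped, and control 1, whose array was the dimmest of the 12, had the lowest signal.

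Within chips the Stab2 difference was -0.64 on chip 1 and -1.11 on chip 2 for Atg7 KO against control, and -0.48 and -0.70 for Olig1-Cre against control. Chip 1 alone, with 2 arrays a group, did not pass for Atg7 KO (adjusted p = 0.0648) or Olig1-Cre (adjusted p = 0.543). With sex as a covariate, which for Atg7 KO rests on the single male control, Stab2 changed by -0.88 (adjusted p = 0.0212). Against the 2 controls of its own line, Atg7 KO differed by -0.90 (adjusted p = 0.00559), while Olig1-Cre differed by -0.57 and did not pass (adjusted p = 0.143).

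Stab1, the paralog of Stab2, encodes stabilin-1, which sinusoidal endothelium shares with some macrophages. Its gene value was 6.99, 7.02, 7.39 and 6.90 in Atg7 KO, 7.03, 6.94, 7.00 and 6.63 in Olig1-Cre, and 7.32, 6.63, 7.23 and 7.15 in control livers. The groups overlapped fully, with changes of -0.01 (SE 0.18, 95% interval -0.41 to 0.38) for Atg7 KO and -0.19 (SE 0.17, -0.57 to 0.19) for Olig1-Cre. Stab1 with arrays scaled to 1 median passed as higher in Atg7 KO (0.87), where the median of all genes was 0.59. Its probes disagreed. The 2 probes on the RefSeq transcript NM_138672 differed by -0.05 and -0.00 between Atg7 KO and control, whereas the probe on the clone AK087634 had 8.49, 7.82, 8.34 and 7.71 in Atg7 KO, 7.30, 7.21, 7.25 and 7.44 in Olig1-Cre, and 7.89, 6.77, 7.86 and 7.15 in control livers. That probe was higher in every Atg7 KO liver than in every Olig1-Cre liver (0.79, SE 0.18, adjusted p = 0.127 over 16727 probes) and differed from control by 0.67 (SE 0.28, adjusted p = 0.0867). The share of probes that separate in this way was not computed. What part of the gene the clone covers was not examined.

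The promoters of these paralogs are shown because Stab2 fell and Stab1 did not pass, next to that of Clec4g, the other scavenger or lectin receptor gene of the list with a promoter in the table used. Each line gives 250 bases before to 50 bases after the start site from RefSeq on GRCm38.p6, 5′ to 3′ along the gene, all 3 on the minus strand: Stab1 at chr14:31168592-31168891, Stab2 at chr10:87007893-87008192 and Clec4g at chr8:3720602-3720901. Capitals mark CAGGAA, a core of ETS factor sites, or its reverse complement TTCCTG.
Stab1: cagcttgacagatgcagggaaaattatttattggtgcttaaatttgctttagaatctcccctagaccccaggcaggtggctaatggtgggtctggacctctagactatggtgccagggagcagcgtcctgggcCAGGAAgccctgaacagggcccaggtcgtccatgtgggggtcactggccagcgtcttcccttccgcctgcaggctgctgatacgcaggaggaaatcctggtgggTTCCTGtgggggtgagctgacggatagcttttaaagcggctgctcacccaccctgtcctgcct
Stab2: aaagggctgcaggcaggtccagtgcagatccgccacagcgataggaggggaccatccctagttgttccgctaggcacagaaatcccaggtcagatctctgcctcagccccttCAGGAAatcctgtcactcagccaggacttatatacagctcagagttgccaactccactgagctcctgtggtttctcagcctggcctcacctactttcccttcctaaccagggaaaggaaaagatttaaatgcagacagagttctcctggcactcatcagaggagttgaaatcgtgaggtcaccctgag
Clec4g: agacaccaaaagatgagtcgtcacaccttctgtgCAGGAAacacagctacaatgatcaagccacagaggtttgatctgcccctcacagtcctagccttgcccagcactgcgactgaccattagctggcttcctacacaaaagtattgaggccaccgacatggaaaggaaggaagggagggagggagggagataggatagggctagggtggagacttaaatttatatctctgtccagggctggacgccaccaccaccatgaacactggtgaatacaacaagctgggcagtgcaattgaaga
The window of Stab1 held the motif at -117 and, on the other strand, at -13 from the start, that of Stab2 at -138 and that of Clec4g at -216. The motifs searched, each on both strands, were this one, found in 30.6% of all 32851 promoters of this length, the second ETS core CCGGAA, found in 14.9%, the GATA core AGATAA, found in 11.2%, and the SOX core ACAAAG, found in 18.7%. Promoters of 5 of the 10 members were in the table. The first ETS core was in those of Stab1, Stab2, Clec4g and Eng, the second in that of Kdr and the SOX core in that of Eng. None held the GATA core, and no matches overlapped. The motif was thus present in the promoter of a gene that fell and in those of genes that did not pass.

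Oit3, whose product is a secreted zona pellucida domain protein, had log2 values of 7.58, 7.70, 7.74 and 7.54 in Atg7 KO, 7.84, 8.32, 7.92 and 8.04 in Olig1-Cre, and 8.31, 8.77, 8.53 and 8.78 in control livers. All Atg7 KO livers lay below all Olig1-Cre livers, as in 4.27% of all genes, but this difference did not pass with limma (adjusted p = 0.233). They also lay below all controls, as in 15.6% of all genes. Between Olig1-Cre and control livers only Olig1-Cre 2 (8.32) and control 1 (8.31) overlapped. Oit3 averaged 7.64 ± 0.10 in Atg7 KO and 8.60 ± 0.22 in control livers (SD, n = 4 each), a change of -0.95 (SE 0.14, adjusted p = 0.000515), and 8.03 ± 0.21 in Olig1-Cre livers, a change of -0.57 against control (SE 0.15, adjusted p = 0.0290). The Atg7 KO difference was -0.90 on chip 1 and -1.01 on chip 2, -0.78 against controls of the Alb line (adjusted p = 0.00926) and -0.67 with sex as a covariate (adjusted p = 0.0345). The Olig1-Cre difference was -0.46 on chip 1 and -0.67 on chip 2. Its second probe was detected on 0 of the 12 arrays. Averaged in, without the filter on dim probes, it gave Oit3 changes of -0.46 (adjusted p = 0.00635) in Atg7 KO and -0.27 (adjusted p = 0.105) in Olig1-Cre.

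The Olig1-Cre calls of Stab2 and Oit3 were lost in most fits on 7 livers, with changes close to those on all 8. Stab2 no longer passed without Olig1-Cre 1, 3 or 4 or without control 1, 3 or 4 (changes of -0.61 to -0.47, adjusted p up to 0.0848), and Oit3 without Olig1-Cre 1, 3 or 4 or without control 2, 3 or 4 (changes of -0.59 to -0.50, adjusted p up to 0.0864). The Atg7 KO calls of both genes passed with any 1 liver left out (adjusted p up to 0.00357 for Stab2 and 0.00243 for Oit3).

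Ptprb encodes VE-PTP, an endothelial phosphatase that acts on the angiopoietin receptor Tie2 and on VE-cadherin. It had log2 values of 7.85, 7.87, 8.66 and 8.76 in Atg7 KO, 8.10, 8.40, 8.98 and 8.91 in Olig1-Cre, and 8.93, 9.26, 8.99 and 9.02 in control livers. In both Cre groups the 2 arrays of chip 1, which come first, were lower than the 2 of chip 2, and the controls were not. The change was -0.76 (SE 0.22, adjusted p = 0.0216) for Atg7 KO, whose livers all lay below the controls, as in 15.6% of all genes, and -0.45 (SE 0.20, adjusted p = 0.129) for Olig1-Cre. Within chips it was -1.23 on chip 1 and -0.29 on chip 2 for Atg7 KO, and -0.85 and -0.05 for Olig1-Cre. Chip 2 less chip 1 was 0.94 (SE 0.25, adjusted p = 0.650) for Atg7 KO and 0.80 (SE 0.27, adjusted p = 0.999) for Olig1-Cre, neither past limma's test over all genes. The Ptprb call was lost on chip 2 alone (adjusted p = 0.312), when sex was fitted as a covariate (-0.65, adjusted p = 0.226), against controls of the Alb line (-0.68, adjusted p = 0.130), without the filter on dim probes (-0.76, adjusted p = 0.0655) and without Atg7 KO 1, Atg7 KO 2 or control 2 (-0.69 to -0.62, adjusted p up to 0.0608).

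Lyve1, a hyaluronan receptor found on sinusoidal and lymphatic endothelium and on some macrophages, moved the other way. It had log2 values of 6.79, 7.13, 7.87 and 7.71 in Atg7 KO, 7.75, 7.37, 7.45 and 7.30 in Olig1-Cre, and 6.50, 6.45, 6.50 and 7.08 in control livers. All Olig1-Cre livers lay above all controls, for which the background in the higher direction was 14.2% of genes, while Atg7 KO 1 (6.79) lay below control 4 (7.08). Lyve1 averaged 7.37 ± 0.50 in Atg7 KO and 6.63 ± 0.30 in control livers (SD, n = 4 each), a change of 0.74 (SE 0.25, adjusted p = 0.0391), and 7.47 ± 0.20 in Olig1-Cre livers, a change of 0.83 against control (SE 0.17, adjusted p = 0.00949). Before normalization the signals were 221, 226, 408 and 362 in Atg7 KO, 308, 204, 292 and 233 in Olig1-Cre, and 98.2, 136, 141 and 176 in control livers. On this scale both Cre groups lay above all controls. The arrays themselves differed in brightness, with median signals of 79.8 to 90.6 in control, 93.6 to 96.9 in Atg7 KO and 88.8 to 95.3 in Olig1-Cre arrays. The share of genes that separate on this scale was not computed.

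Lyve1 kept its direction in both comparisons with control in all alternatives. The change for Atg7 KO was 0.48 on chip 1 and 0.998 on chip 2, and for Olig1-Cre 1.08 and 0.58. The Atg7 KO call was lost in 11 of 21 alternatives, among them sex as a covariate (0.87, adjusted p = 0.150), controls of the Alb line (0.87, adjusted p = 0.0669), and each fit without Atg7 KO 3 or 4 or without control 1, 2 or 3 (adjusted p up to 0.101). The cubic spline, which the methods name, also lost the Atg7 KO call (0.47, adjusted p = 0.0584), as did quantiles alone (0.48, adjusted p = 0.0568). Without the filter on dim probes its adjusted p was 0.113, and on chip 1 alone 0.149. The Olig1-Cre call was lost in 3, with controls of the Olig1 line (0.70, adjusted p = 0.0853) and on chip 1 or chip 2 alone (adjusted p = 0.223 and 0.154), and passed with any 1 liver left out (adjusted p up to 0.0327).

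Markers of other cells that carry Lyve1 were read beside it. Of 9 tested markers of Kupffer cells and macrophages, 7 rose and 0 fell in Atg7 KO, and 4 rose and 0 fell in Olig1-Cre livers, with medians of 0.85 in Atg7 KO and 0.64 in Olig1-Cre. The share of all genes that rose was 19.5% in Atg7 KO and 12.8% in Olig1-Cre, and 15.3% and 8.44% fell. The summed linear level of the 9 macrophage markers was 5827 to 6810 in Atg7 KO, 4251 to 7212 in Olig1-Cre and 2440 to 3812 in control livers. C1qb rose by 1.59 in Atg7 KO and by 1.31 in Olig1-Cre livers. The other named markers, C1qc, C1qa and the macrophage receptor Adgre1, rose by 1.37, 1.21 and 0.87 in Atg7 KO and by 1.29, 1.06 and 0.88 in Olig1-Cre. Timd4 and Marco, 2 receptors of resident Kupffer cells named after their values were seen, changed by 0.07 and -0.34 in Atg7 KO and did not pass. Among the lymphatic markers, Prox1, which hepatocytes also express, fell by 0.85 in Atg7 KO, Pdpn fell by 0.82 in Olig1-Cre, and their summed level with Ccl21a was 200 to 398 in Atg7 KO, 198 to 246 in Olig1-Cre and 270 to 341 in control livers. The part of these cells in the Lyve1 values was not tested.

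Clec4g, the lectin LSECtin, was read by 2 probes, 1 of them near background. The probe on NM_029465 had 11.30, 11.55, 11.58 and 11.14 in Atg7 KO, 11.26, 11.97, 11.41 and 11.42 in Olig1-Cre, and 11.62, 11.77, 11.66 and 11.99 in control livers. All Atg7 KO values lay below all controls, and only Olig1-Cre 2 entered the control range. Among gene values 15.6% of all genes lay so in Atg7 KO, and the share over probes was not computed. The changes were -0.37 (SE 0.15, adjusted p = 0.0855 over 16727 probes) for Atg7 KO and -0.24 (SE 0.17, adjusted p = 0.340) for Olig1-Cre, neither past the test. The other probe, on AK016282, was detected on 5 of 12 arrays at 4.41 to 4.98. The gene value is the mean of both, so its changes of -0.24 (SE 0.13, adjusted p = 0.168) in Atg7 KO and -0.14 (SE 0.12, adjusted p = 0.429) in Olig1-Cre include a probe near background.

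**Figure D2:**
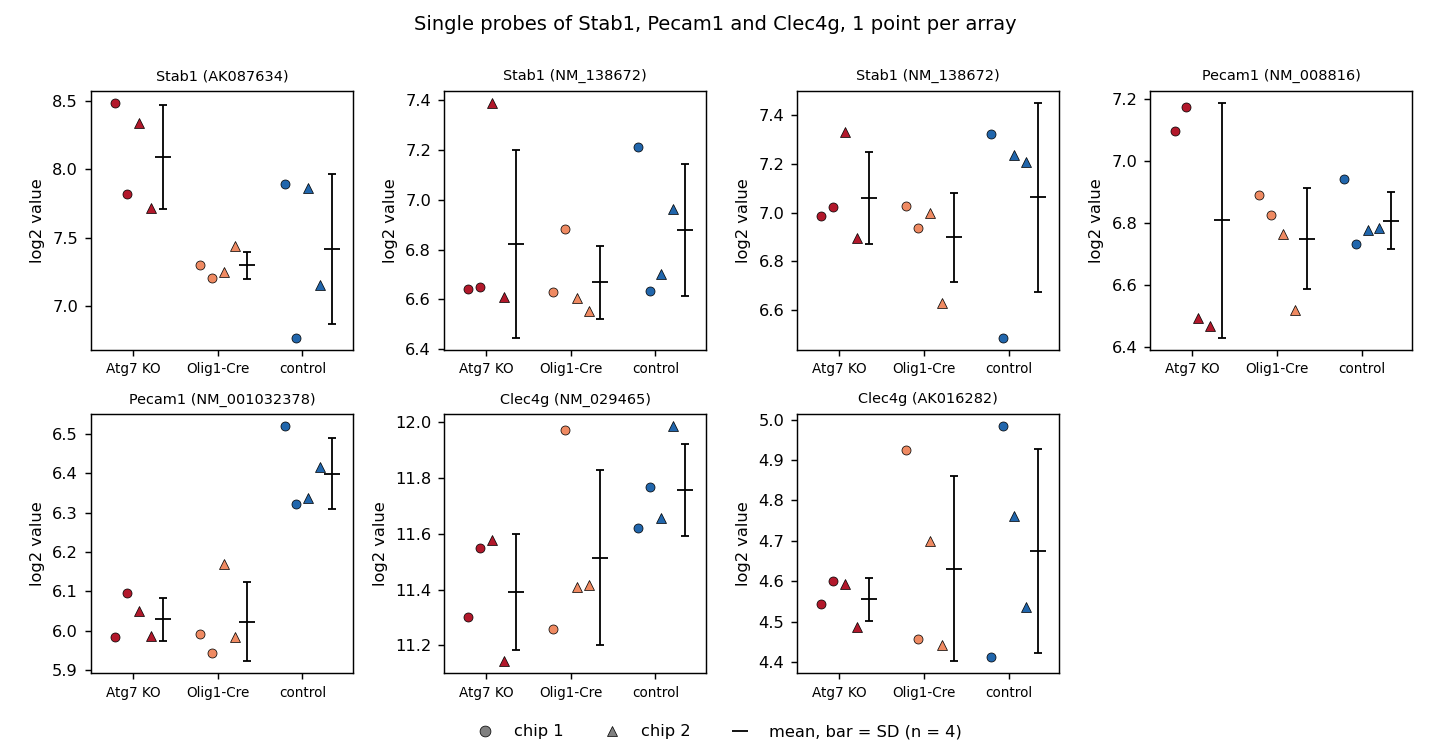
Log2 values (vertical axes) of the single detected probes of Stab1, Pecam1 and Clec4g, with the accession of the transcript each was designed on; groups, symbols and bars as in the plot of the 9 markers. The AK087634 probe of Stab1 has a mean of 8.09 in Atg7 KO and 7.42 in control livers while the NM_138672 probes lie level, and the NM_001032378 probe of Pecam1 is below every control in both Cre groups, which holds for quantile-normalized arrays. Among gene values 15.6% of all genes lie below every control in Atg7 KO and 9.72% in Olig1-Cre.

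Pecam1, or CD31, had gene values of 6.23 to 6.63 in Atg7 KO, 6.25 to 6.47 in Olig1-Cre and 6.53 to 6.73 in control livers, with changes of -0.18 (SE 0.13, adjusted p = 0.310) for Atg7 KO and -0.22 (SE 0.11, adjusted p = 0.182) for Olig1-Cre. Olig1-Cre livers lay below all controls, as in 9.72% of all genes, and Atg7 KO livers did not. Without the filter on dim probes Pecam1 passed as lower in both (-0.37, adjusted p = 0.00381, in Atg7 KO and -0.38, adjusted p = 0.0210, in Olig1-Cre). An undetected probe then entered the median, which became the value of the NM_001032378 probe described below, so both are the same result. With arrays scaled to 1 median Pecam1 passed as higher in Atg7 KO (0.67), where the median of all genes was 0.59. One probe carried the difference. The probe on NM_001032378 had 5.98, 6.10, 6.05 and 5.99 in Atg7 KO, 5.99, 5.94, 6.17 and 5.98 in Olig1-Cre, and 6.52, 6.32, 6.34 and 6.42 in control livers, and it fell by 0.37 (SE 0.12, adjusted p = 0.0347 over 16727 probes) in Atg7 KO and by 0.38 (SE 0.12, adjusted p = 0.0469) in Olig1-Cre. Before normalization its signals were 149 to 169.1 in Atg7 KO, 120.6 to 161.6 in Olig1-Cre and 98.5 to 137.5 in control livers. On that scale all Atg7 KO livers lay above all controls, so the fall holds for the normalized values only. The probe on NM_008816 differed by 0.00 for Atg7 KO and -0.06 for Olig1-Cre and split by chip in Atg7 KO, with 7.10 and 7.17 on chip 1 and 6.50 and 6.47 on chip 2. The median of the 2 probes therefore describes neither.

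Eng, the endoglin co-receptor of BMP9, had 8.31, 7.56, 7.48 and 7.56 in Atg7 KO, 7.83, 7.83, 7.82 and 7.64 in Olig1-Cre, and 7.79, 7.93, 7.92 and 7.99 in control livers. Atg7 KO 1 stood above every control and the other Atg7 KO livers below every control. The changes were -0.18 (SE 0.18, adjusted p = 0.493) for Atg7 KO and -0.13 (SE 0.11, adjusted p = 0.431) for Olig1-Cre. Without Atg7 KO 1 the Eng change was -0.37 (adjusted p = 0.0537).

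Cdh5, or VE-cadherin, had 6.80, 6.67, 6.20 and 6.35 in Atg7 KO, 6.21 to 6.55 in Olig1-Cre and 6.36 to 6.64 in control livers. Its changes were -0.00 (SE 0.16, 95% interval -0.36 to 0.35) for Atg7 KO and -0.12 (SE 0.13, -0.40 to 0.16) for Olig1-Cre. Cdh5 with arrays scaled to 1 median passed as higher in Atg7 KO (0.78), where the median of all genes was 0.59. In the deposited values the Cdh5 mean for Atg7 KO joined opposite values, 0.35 on chip 1 and -0.36 on chip 2 (adjusted p = 0.774 for the difference). Over all genes, 0 passed the test of the difference between the chips in any comparison with limma (652 genes at an unadjusted p under 0.05 for Atg7 KO against control).

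**Figure D3:**
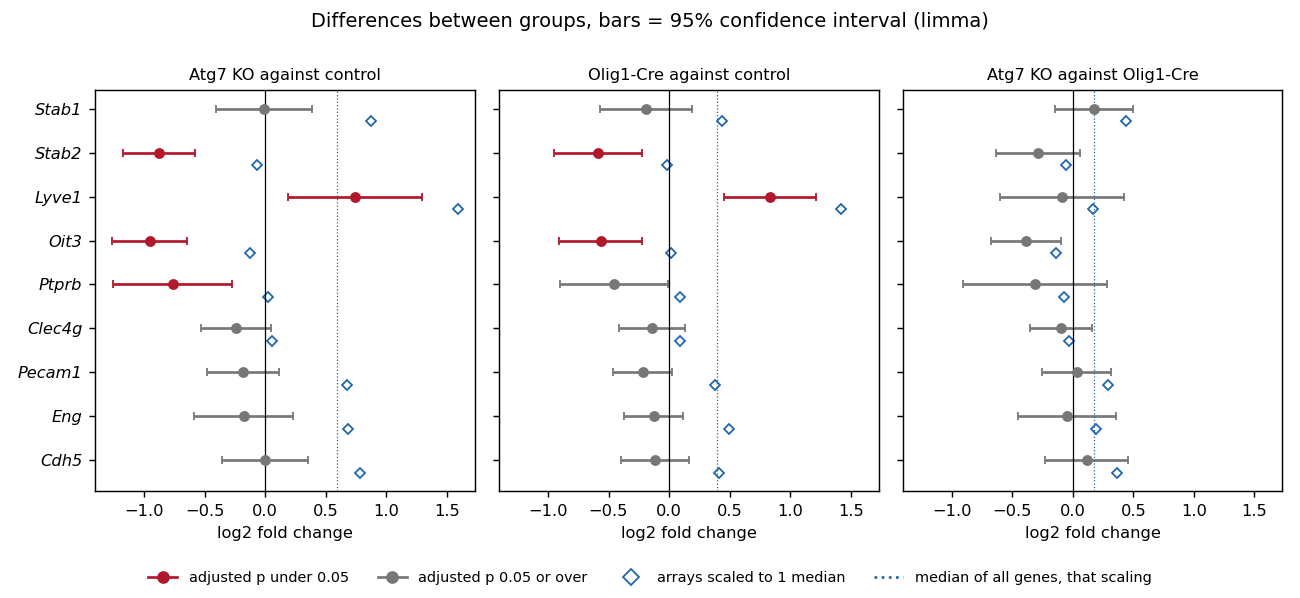
Log2 fold changes of the 9 markers (horizontal axes) with 95% confidence intervals from limma, for Atg7 KO against control, Olig1-Cre against control and Atg7 KO against Olig1-Cre; red marks an adjusted p under 0.05, open diamonds the value with arrays scaled to 1 median, and the dotted line the median of all genes under that scaling (0.59, 0.40 and 0.18). Stab2 and Oit3 lie left of 0 and Lyve1 right of 0 in both comparisons with control, but with the scaling to 1 median Stab2 and Oit3 lie between -0.12 and 0.02 there, still left of the dotted line.

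For Olig1-Cre against control, then, 2 markers fell (Stab2 and Oit3) and 1 rose (Lyve1) of 9, where 21.3% of all genes were called, 12.8% higher and 8.44% lower. The median of the markers was -0.19, against 0.00 over all genes. Scaling to 1 median moved the median of all genes up by 0.40 and gave Stab2 -0.02, Oit3 0.02 and Lyve1 1.42, of which Lyve1 alone passed, where 16.2% of all genes were called higher and 0.355% lower. The median of the markers less that of all genes was then -0.02. Both comparisons use the same 4 control livers, so the likeness of their values is not independent evidence.

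Set directly against Olig1-Cre, Atg7 KO livers differed in 0 of the 9 markers (limma, adjusted p under 0.05), where 17 of 10711 genes, 0.159%, were called and 1538 had an unadjusted p under 0.05. Oit3 had the largest difference, -0.39 (SE 0.13, 95% interval -0.68 to -0.10, adjusted p = 0.233), and its groups did not overlap, as in 4.27% of genes in that direction. The interval was -0.64 to 0.06 for Stab2, -0.91 to 0.29 for Ptprb and -0.60 to 0.42 for Lyve1, so differences of this size between the Cre lines could not be told from 0. For Lyve1 the chips pointed opposite ways, with -0.60 on chip 1 and 0.41 on chip 2.

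The effect of each Cre line against its own 2 controls was also compared. The Alb-Cre effect minus the Olig1-Cre effect was -0.33 (SE 0.27) for Stab2, -0.03 (SE 0.22) for Oit3, -0.14 (SE 0.43) for Ptprb and 0.17 (SE 0.40) for Lyve1, and 0 of 9 markers and 0 of all genes passed with limma (755 genes at an unadjusted p under 0.05). Male against female livers within the Olig1-Cre and control groups differed by -0.21 to 0.22 in the 9 markers, 0 of which passed, where 46 genes, 0.429%, did. Stab2 was 0.22 (SE 0.18) higher in males and Oit3 differed by 0.00 (SE 0.18). In the Atg7 KO group, which was all male, sex and genotype cannot be fully told apart.

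Beyond the 9 markers, further lists of endothelial genes were read in the same fits. Of 13 tested genes in a further list of sinusoidal endothelial genes, 5 fell and 0 rose in Atg7 KO, and 4 fell and 0 rose in Olig1-Cre livers, where 15.3% of all genes fell in Atg7 KO and 8.44% in Olig1-Cre, with medians of -0.34 in Atg7 KO and -0.26 in Olig1-Cre, against -0.01 and 0.00 over all genes. With arrays scaled to 1 median, 0 fell and 1 rose in Atg7 KO and 0 passed in Olig1-Cre, and the median of the list less that of all genes was -0.29 in each. That scaling called 45.3% of all genes higher in Atg7 KO and 16.2% in Olig1-Cre. All these lists were drawn up with earlier results of these livers known.

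Wnt2, a sinusoidal Wnt ligand for hepatocytes, had 5.36, 5.41, 6.06 and 5.63 in Atg7 KO, 5.78, 6.31, 5.85 and 5.92 in Olig1-Cre, and 6.88, 6.55, 6.47 and 7.18 in control livers. Both Cre groups lay below all controls, and the gene fell by 1.15 (SE 0.20, adjusted p = 0.00163) in Atg7 KO and by 0.80 (SE 0.18, adjusted p = 0.0150) in Olig1-Cre livers. Such a gap held for 15.6% of all genes in Atg7 KO and 9.72% in Olig1-Cre. Ehd3, an endocytic protein, had 7.00, 7.15, 7.40 and 7.42 in Atg7 KO, 7.22, 7.76, 7.28 and 7.18 in Olig1-Cre, and 8.53, 8.37, 8.31 and 8.19 in control livers. Its changes were -1.11 (SE 0.14, adjusted p = 0.000222) in Atg7 KO and -0.99 (SE 0.15, adjusted p = 0.00298) in Olig1-Cre, and the ranges of the 2 Cre groups overlapped. Dnase1l3, a secreted nuclease, fell by 0.94 (SE 0.14) in Atg7 KO and by 0.62 (SE 0.14) in Olig1-Cre. F8, coagulation factor VIII, fell by 0.66 in Atg7 KO, and the receptor Gpr182 fell by 0.58 in Olig1-Cre and, named after its values were seen, by 0.65 in Atg7 KO. Fcgr2b, Mrc1, Flt4, Gata4, Maf, Rspo3, Clec1b and Il6st did not pass in either comparison, with changes between -0.36 and 0.52. These genes too were named after their values were seen.

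Of 11 tested genes of ordinary capillaries and of the basement membrane, 5 rose, 0 fell and 6 did not pass in each Cre group. Of all genes 19.5% rose in Atg7 KO and 12.8% in Olig1-Cre. The medians of the list were 0.69 in Atg7 KO and 0.50 in Olig1-Cre. With arrays scaled to 1 median 9 rose in Atg7 KO, 5 in Olig1-Cre and 0 fell, where 45.3% of all genes rose in Atg7 KO and 16.2% in Olig1-Cre. The list median less that of all genes was then 0.94 in Atg7 KO and 0.68 in Olig1-Cre. Esm1, an endothelial proteoglycan, had 7.29, 6.66, 7.08 and 7.64 in Atg7 KO, 7.53, 5.90, 7.52 and 7.20 in Olig1-Cre, and 4.91, 5.11, 4.97 and 6.27 in control livers. Control 4 and Olig1-Cre 2 stood apart from their groups and overlapped, and the changes were 1.85 (SE 0.31, adjusted p = 0.00117) in Atg7 KO and 1.72 (SE 0.40, adjusted p = 0.0158) in Olig1-Cre. Esm1 was detected on 3 of the 4 control arrays. Col4a1, a chain of basement membrane collagen, had 10.65, 10.23, 10.59 and 9.82 in Atg7 KO, 9.35, 8.71, 9.53 and 10.05 in Olig1-Cre, and 8.68, 8.21, 8.80 and 8.28 in control livers. It rose by 1.83 (SE 0.21, adjusted p = 0.000126) in Atg7 KO and by 0.91 (SE 0.26, adjusted p = 0.0336) in Olig1-Cre. Its partner chain Col4a2 and the linker protein Nid1 rose by 1.64 and 1.55 in Atg7 KO and by 0.64 and 1.02 in Olig1-Cre. The fifth called gene, named after its values were seen, was Lamc1 in Atg7 KO (1.19) and Plvap in Olig1-Cre (0.50). Vwf and Cd34, named in the same way, changed by -0.18 and 0.44 in Atg7 KO and did not pass. Stellate cells and other cells also make these matrix proteins. Of 9 tested stellate cell markers, 2 rose and 0 fell in each Cre group, with summed levels of 1189 to 1699 in Atg7 KO, 1523 to 2073 in Olig1-Cre and 1159 to 1833 in control livers, and their part in the matrix genes was not tested.

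**Figure D4:**
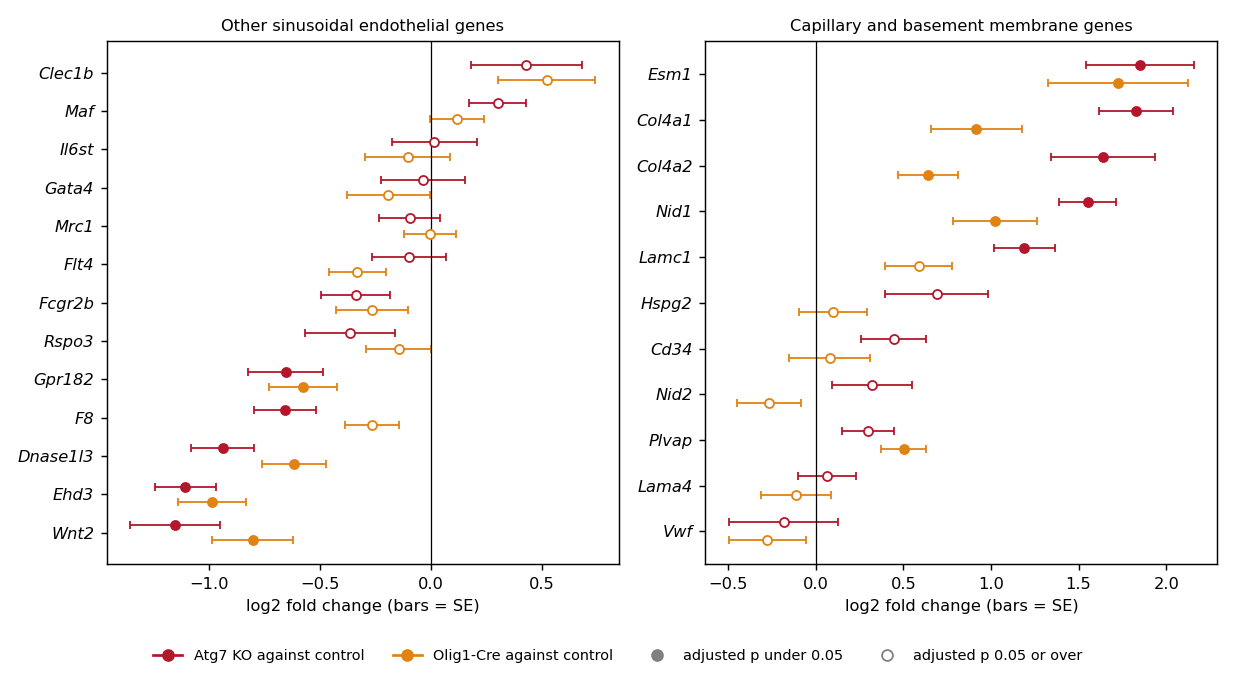
Log2 fold changes with SE (horizontal axes) of the 13 other sinusoidal endothelial genes and the 11 capillary and basement membrane genes tested, for Atg7 KO against control (red) and Olig1-Cre against control (orange), which share their controls; filled points passed the test. Wnt2, Ehd3 and Dnase1l3 are lowest in the left panel and Esm1, Col4a1 and Nid1 among the highest in the right one; with arrays scaled to 1 median the called genes of the left panel no longer pass as lower, and F8 turns to 0.20.

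Genes of all endothelium were mixed. Of 17 tested, 2 rose and 5 fell in Atg7 KO and 0 rose and 1 fell in Olig1-Cre livers, with medians of -0.22 in Atg7 KO and -0.18 in Olig1-Cre. Among all genes 19.5% rose and 15.3% fell in Atg7 KO, and 12.8% rose and 8.44% fell in Olig1-Cre. Cav1, the caveolae protein, rose by 1.37 (SE 0.28) and Cd93 by 0.75 (SE 0.16) in Atg7 KO, whereas Adgrl4 fell by 1.13 (SE 0.17) and Tek, the Tie2 receptor on which VE-PTP acts, by 0.66 (SE 0.15). In Olig1-Cre livers Arhgef15 fell by 0.68 (SE 0.12). With arrays scaled to 1 median, 8 rose in Atg7 KO, 2 in Olig1-Cre and 0 fell, and Tek changed by 0.22 in Atg7 KO. Under that scaling 45.3% of all genes rose in Atg7 KO and 16.2% in Olig1-Cre. The list median less that of all genes was 0.07 in Atg7 KO and -0.00 in Olig1-Cre.

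In the VEGF and angiopoietin system, to which Kdr and Ptprb belong, 3 of 10 tested genes rose and 3 fell in Atg7 KO, and 0 rose and 3 fell in Olig1-Cre livers. The shares over all genes were 19.5% higher and 15.3% lower in Atg7 KO, and 12.8% higher and 8.44% lower in Olig1-Cre. Vegfa, the ligand of Kdr made by hepatocytes, fell by 0.97 (SE 0.13, adjusted p = 0.000375) in Atg7 KO and by 0.91 (SE 0.19, adjusted p = 0.00974) in Olig1-Cre. The co-receptor Nrp1 fell by 0.73 in Atg7 KO and by 0.59 in Olig1-Cre, and the receptor Flt1 by 0.53 in Olig1-Cre. Angpt2, the antagonist of Tie2, rose by 0.98 (SE 0.32, adjusted p = 0.0387) and Vegfc, ligand of the lymphatic VEGF receptor, by 0.85 in Atg7 KO. With arrays scaled to 1 median, 5 genes rose in Atg7 KO, 1 in Olig1-Cre and 0 fell, with Vegfa at -0.19 and Nrp1 at 0.02 in Atg7 KO. The same scaling raised 45.3% of all genes in Atg7 KO and 16.2% in Olig1-Cre. The list median less that of all genes was 0.10 in Atg7 KO and -0.06 in Olig1-Cre.

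In the BMP9 and endoglin system, to which Eng belongs, 6 of 16 tested genes rose and 1 fell in Atg7 KO, and 4 rose and 1 fell in Olig1-Cre livers, with medians of 0.21 in Atg7 KO and 0.37 in Olig1-Cre. Of all genes 19.5% rose and 15.3% fell in Atg7 KO, and 12.8% rose and 8.44% fell in Olig1-Cre. In Atg7 KO livers the receptor Tgfbr2 rose by 1.47, its ligand Tgfb1 by 0.82 and the BMP target gene Id1 by 0.97, and in Olig1-Cre livers Tgfbr2 rose by 0.90, Tgfb1 by 0.61 and the related Id3 by 1.03. Acvr2b, an activin receptor, fell by 1.14 in Atg7 KO and by 0.80 in Olig1-Cre. With arrays scaled to 1 median, 7 genes of this system rose in Atg7 KO, 4 in Olig1-Cre and 0 fell, where 45.3% of all genes rose in Atg7 KO and 16.2% in Olig1-Cre. The list median less that of all genes was then 0.17 in Atg7 KO and 0.15 in Olig1-Cre.

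Among 14 tested endothelial transcription factors, 2 rose and 3 fell in Atg7 KO and 1 rose and 1 fell in Olig1-Cre livers. For these and the junction and Notch genes below, 19.5% of all genes rose and 15.3% fell in Atg7 KO. In Olig1-Cre these shares were 12.8% and 8.44%. Ets2 rose by 1.34 in Atg7 KO and by 0.78 in Olig1-Cre, and Fli1 rose by 0.50 in Atg7 KO. Fli1 was dim and detected on 1 of the 4 control arrays, with means of 5.12 in Atg7 KO and 4.62 in control livers. Scaled to 1 median, 7 of these factors rose in Atg7 KO, 1 in Olig1-Cre and 0 fell. Under that scaling 45.3% of all genes rose in Atg7 KO and 16.2% in Olig1-Cre. The median of the factors less that of all genes was -0.11 in Atg7 KO and -0.13 in Olig1-Cre. Nr2f2, a venous factor, fell by 0.61 in Atg7 KO and by 0.44 in Olig1-Cre, but turned to 0.21 and 0.13 with arrays scaled to 1 median, and Sox7 fell by 0.70 in Atg7 KO. Sox7 was also dim, with means of 4.71 in Atg7 KO and 5.42 in control livers. Of 12 junction genes, 3 rose in Atg7 KO (Nectin2 by 1.19, Ctnna1 by 0.81 and F11r by 0.68) and 2 in Olig1-Cre (Nectin2 by 0.94 and Ctnna1 by 0.51), and 0 fell. With arrays scaled to 1 median 10 rose in Atg7 KO, 1 in Olig1-Cre and 0 fell, and the list median less that of all genes was 0.36 in Atg7 KO and 0.08 in Olig1-Cre. Nectin2, Ctnna1 and F11r are also found at the contacts of epithelial cells. Of 5 tested Notch genes, Hey1 rose by 1.10 in Atg7 KO and by 1.34 in Olig1-Cre, and in Olig1-Cre livers Hes1 rose by 0.67 and Notch4, the endothelial receptor, fell by 0.56. Hey1 was detected on 3 of the 4 control arrays, with a control mean of 4.94. Under the scaling to 1 median 4 Notch genes rose in Atg7 KO, 2 in Olig1-Cre and 0 fell. Their median less that of all genes was then 0.52 in Atg7 KO and 0.35 in Olig1-Cre. Against Olig1-Cre, Atg7 KO livers had 0 called genes in each of these lists.

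Of 7 tested hepatocyte markers, 4 fell and 0 rose in Atg7 KO, and 2 fell and 0 rose in Olig1-Cre livers, with medians of -0.79 in Atg7 KO and -0.57 in Olig1-Cre. For this and the other cell type lists below, 15.3% of all genes fell and 19.5% rose in Atg7 KO. In Olig1-Cre these shares were 8.44% and 12.8%. One of the 4 hepatocyte markers that fell in Atg7 KO was Alb, read by a probe near background (means of 4.69 in Atg7 KO and 5.48 in control livers). Without Alb, a choice made after seeing the data, 3 of 6 fell in Atg7 KO and 2 in Olig1-Cre, with medians of -0.59 in Atg7 KO and -0.48 in Olig1-Cre. Serpina1a fell by 1.25 in Atg7 KO, and Cps1 and Ass1, enzymes of the urea cycle, fell by 1.01 and 0.80 in Atg7 KO and by 0.94 and 0.71 in Olig1-Cre. With arrays scaled to 1 median 0 of the 7 passed, and the list median less that of all genes was -0.86 in Atg7 KO and -0.59 in Olig1-Cre. The summed level of the 7 hepatocyte markers was 37971 to 44596 in Atg7 KO, 38721 to 51130 in Olig1-Cre and 49968 to 58368 in control livers. The sum of the gene values of the 9 sinusoidal markers was 1630 to 1846 in Atg7 KO, 1735 to 2001 in Olig1-Cre and 2158 to 2482 in control livers. In this sum Clec4g is understated, because its gene value averages a bright probe with a probe near background. Summed levels were computed on the deposited values only, and no share over all genes goes with them. Of the bile duct markers, 2 of 4 rose in Atg7 KO, led by Sox9 (2.24), and 1 in Olig1-Cre. Of the B and T cell markers, 2 of 3 rose in Olig1-Cre (Cd3d by 0.82 and Cd3e by 0.52), each detected on 3 of the 4 control arrays, and of the erythroid markers Hba-a1 fell by 1.33 in Olig1-Cre. The part of these cells in the marker values was not tested.

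The markers did not move as 1 block over the 12 arrays. Of the 36 pairs among the 9 markers, 23 correlated above 0, with a median Pearson r of 0.10, and 19 did so after the group means were taken off, with a median of 0.05. Stab2 and Oit3 were the closest pair (r = 0.91, and 0.51 within groups), and Lyve1 ran against Stab2 (r = -0.71). The arrays share groups, chips and normalization, and these values are descriptions. The genes whose values were most like the mean of the 9 markers over the 12 arrays were Pemt (r = 0.95), Ebpl (0.94), Scarb2 (0.94), Acy1 (0.94), Psmd9 (0.93), Wnt2 (0.92), Gm2002 (0.92), Gcdh (0.92), Got2 (0.92) and Dnase1l3 (0.92), all of which were lower in both Cre groups in the quantile-normalized values. After the group means were taken off they were Ncf1 (0.89), Dennd2c (0.86), Chst15 (0.86), Fcna (0.85) and Ccdc154 (0.84), with r again over 12 arrays.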

How the data were processed

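Whole livers were measured on 12 MouseWG-6 v2.0 arrays, 4 per group, grouped by source name. Bead intensities, exported from GenomeStudio, were deposited by the authors without background correction or normalization, together with a deposited detection p-value against the negative controls of the array. The log2 values used here were deposited by the authors, run from 4.11 to 14.16, and rank the probes as the intensities of their own array do in 12 of 12 columns; the submitters' processing notes name limma 3.22.1, and limma's neqc with an offset of 16 gave values within 0.027. The methods name a cubic spline instead.

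Probes with a detection p under 0.05 on at least 4 arrays were kept (19528 of 45281) and took their names from the annotation of the platform, in which 34885 probes have 1 symbol, 18 have several and 10378 are unnamed here. The 16727 kept probes with 1 symbol were collapsed to the median of each of 10711 genes, as the methods do. Pairs of groups were compared on their 8 arrays with limma 3.58.1 in R 4.3.3 (lmFit, eBayes, two-sided, Benjamini-Hochberg adjustment over all genes, called at an adjusted p under 0.05). A difference of the Cre effects between lines used all 12 arrays, and male against female the Olig1-Cre and control arrays with group as a term. The labels do not say which livers share a litter, so each p-value covers only how much these livers differ within a group. Arrays count no molecules, and their number limits the precision. On simulated data with 200 genes changed, 8% of changes of 0.5 and 92% of changes of 1 on the log2 scale were recovered for Atg7 KO against control. In the real comparison 3729 genes were called, which makes the adjusted threshold less strict. These shares therefore do not give the power of the real comparison.

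The members and the 15 gene lists were chosen with earlier results of these data known. Named genes are the 10 members, up to 4 called genes with the largest change per list and comparison, and the 10 and 5 genes most correlated with the members' mean over arrays and within groups. Alternatives changed the normalization, filter, probe rule, arrays, covariates and chip.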

Additional observations from a re-analysis of the deposited data

Results flagged for a closer look

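In 183 groups of 4 livers, 27 of them of the 9 markers, the liver farthest from its group was tested with Dixon's ratio, which flags about 1 group in 20 by chance. Of the groups of the markers 3 were flagged, and 11 in all. Lyve1 was 7.08 in control 4, against 6.45 to 6.50 in the other controls, which narrows its gap to both Cre groups. Eng was 8.31 in Atg7 KO 1, against 7.48 to 7.56 in the other Atg7 KO livers, and 7.64 in Olig1-Cre 4, against 7.82 to 7.83 in the other Olig1-Cre livers.

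Of the 8 other flagged values, 3 fell on control 4 and Atg7 KO 1 and 5 on Olig1-Cre 2 and Atg7 KO 2. In Olig1-Cre 2, Ehd3 was 7.76 (7.18 to 7.28 in the others of its group), F8 was 6.76 (6.39 to 6.45) and Hba-a1 was 9.43 (10.79 to 10.95). In control 4, Esm1 was 6.27 (4.91 to 5.11) and Ass1 was 12.82 (13.32 to 13.39). In Atg7 KO 2, Alb was 4.44 (4.75 to 4.79), on a probe near background, and Hes1 was 6.20 (6.80 to 6.91). In Atg7 KO 1, Prox1 was 6.20 (6.86 to 6.90).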

How the results depend on the processing

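Between Atg7 KO and control, 4 members (1 higher, 3 lower) and 34.8% of all genes passed. The count was 4 with arrays scaled to 1 median (4 higher, 0 lower, 46.8% of all genes), 2 with controls of the same line (23.8% of all genes), 2 with sex as a covariate (20.3%), 2 on chip 1 alone (17.5%) and 2 to 4 with 1 liver left out (2 without control 2). Between Olig1-Cre and control, 3 members and 21.3% of all genes passed, against 1 with arrays scaled to 1 median (16.5% of all genes), 1 with controls of the same line (6.95%), 0 on chip 1 alone (0.149%), 1 on chip 2 alone (11.6%) and 1 to 3 with 1 liver left out (1 without Olig1-Cre 1, 3 or 4 or control 3 or 4). Between Atg7 KO and Olig1-Cre 0 passed in every fit. On 2 arrays a group the spread has few degrees of freedom, and the cause of the other changes was not tested. No paired analysis was possible because the labels give no replicate numbers. With the chip as a block, 4 members passed for Atg7 KO and 3 for Olig1-Cre, the same genes as without it. The labels name chips by barcode, and the test of the difference between chips was chosen after seeing the data.

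The scaling to 1 median turned the most signs. Between Atg7 KO and control it gave Stab1 0.87, Ptprb 0.0241, Clec4g 0.0547, Pecam1 0.67, Eng 0.69, Cdh5 0.78, F8 0.20, Tek 0.22, Nrp1 0.0223 and Nr2f2 0.21, against a median of all genes of 0.59. Of these, Stab1, Pecam1 and Cdh5 passed as higher among the members. Between Olig1-Cre and control the scaling gave Stab1 0.43, Oit3 0.0178, Ptprb 0.0940, Clec4g 0.0895, Pecam1 0.38, Eng 0.49, Cdh5 0.41, Gpr182 0.0282, Flt1 0.0710, Nr2f2 0.13 and Notch4 0.0614, against a median of all genes of 0.40. Between Atg7 KO and Olig1-Cre it gave Lyve1 0.17 and Eng 0.19. Elsewhere the turned signs were of changes that did not pass with the deposited values, apart from Nr2f2. For Atg7 KO against control they were Cdh5 at 0.00216 with quantiles alone, 0.00299 with the cubic spline, 0.000676 with the brightest probe, 0.10 with sex as a covariate and 0.35 on chip 1, Stab1 at 0.67 with the brightest probe and 0.0279 on chip 1, Pecam1 at 0.000545 with the brightest probe, Eng at 0.0734 on chip 1, and Nr2f2 at 0.00601 without the filter. For Olig1-Cre against control Stab1 was 0.00520 with controls of the same line and 0.00468 on chip 1. For Atg7 KO against Olig1-Cre, Lyve1 was 0.00922 with sex as a covariate and 0.41 on chip 2, Eng 0.10 on chip 1, Pecam1 -0.11 and Cdh5 -0.19 on chip 2. With 1 liver left out, Atg7 KO against control ranged from -0.16 to 0.0669 for Stab1 and from -0.10 to 0.0993 for Cdh5, and Atg7 KO against Olig1-Cre from -0.26 to 0.10 for Lyve1, -0.24 to 0.0317 for Eng and -0.0394 to 0.0966 for Pecam1.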
